A study of Caenorhabditis elegans with 8 samples.

Results

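The comparison set whole adult worms of the mir-83 mutant strain MT15501 against whole adult worms of the wild-type strain N2, both Caenorhabditis elegans at adult day 4. It used 4 of the 8 libraries of the series, 2 of mir-83 day 4 and 2 of N2 day 4, chosen by their labelled strain and age and paired by replicate number. All worms had been grown at 20 °C on agar plates with FuDR and fed the bacterium OP50. FuDR blocks DNA synthesis and so the production of progeny, and both strains received it. The labels call the tested strain a mir-83 mutant and give neither its allele nor a rescued strain, so the strain stands as a single line. The other 4 libraries, mir-83 day 12 and N2 day 12, entered the same model and are set beside the day 4 values at the end. Of 18287 genes counted in both replicates, 15843 had enough reads to be tested, and all of them are described.

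MicroRNAs are short RNAs that guide Argonaute proteins to matching sites in messenger RNAs, mostly in 3′ untranslated regions, and lower the output of those messages. The gene mir-83 encodes the worm member of the conserved miR-29 family, and the study concerns its loss in relation to lifespan and to expression at different ages. A message that a microRNA represses directly would be released in a mutant, but indirect changes can go either way. In adult hermaphrodites of this age the intestine makes yolk for oocytes, the germline loads maternal messages, and fertilised eggs start to transcribe their own genome.

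The mir-83 day 4 libraries held 21879630 and 36202805 reads and the N2 day 4 libraries 20270542 and 32092551 reads (replicates 1 and 2). The most abundant 10 genes took 12.1% and 14.2% of the reads in mir-83 and 5.89% and 6.20% in N2, with the yolk protein genes vit-5, vit-2 and vit-6 leading in mir-83. The TMM factors, which set the common scale from the bulk of the genes, were 0.644 and 0.596 in mir-83 and 1.16 and 1.08 in N2. Levels are given as CPM, counts scaled to library size and adjusted by these factors, unless plain library sizes are named. The median log2 fold change over all genes was -0.14 on the TMM scale and -0.99 on plain library sizes, so genes are described relative to the bulk and the plain value is given where it changes a direction. Across genes, log2 CPM correlated at 0.975 between the mir-83 day 4 libraries and at 0.949 between the N2 day 4 libraries, and between 0.912 and 0.927 across strains.

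At day 4, 701 genes were higher in mir-83 than in N2, which is 4.42% of the genes tested, and 416 were lower, which is 2.63%, so that 7.05% differed in either direction (edgeR, threshold 0.05 on the Benjamini-Hochberg adjusted p, of which 0.0211 was the smallest, 2 libraries per group). The higher genes were abundant and moved moderately, with a median level of 139 CPM and a median log2 fold change of 1.63, and only 9 of them passed 4 on the log2 scale. The lower genes were scarce and moved far, with a median level of 6.56 CPM and a median absolute log2 fold change of 3.10, and 150 of them passed 4. Level here is the geometric mean over the 4 day 4 libraries of both strains, with a small constant added. A gene's own fall therefore lowers its level, and a rise raises it. Both mir-83 libraries lay above both N2 libraries in 696 of the 701 higher genes and below them in all 416 lower genes. Over all genes tested, 29.4% lay above in this way and 35.4% below. Of the genes tested, 78.5% had the same sign of difference in both replicates.

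The labels do not say that replicates came from separate cultures. Each p-value is set against 1 spread shared by the 8 libraries of the model, day 12 included, and that spread may be technical. The number of calls therefore also depends on the day 12 libraries. Without both mir-83 day 12 libraries 1393 genes were higher and 1015 lower, and with only the 4 day 4 libraries 2674 and 2203. The calls also rest on each of the 4 libraries of the comparison. Without mir-83 day 4 replicate 1 or without mir-83 day 4 replicate 2, 0 genes passed the edgeR test in either direction (2301 and 2380 genes were under 0.05 before adjustment). Without N2 day 4 replicate 1, 41 were higher and 15 lower, and without N2 day 4 replicate 2, 1 was higher and 11 lower. All 701 and 416 genes kept their sign in each of these fits. They were called from the same libraries and nearly all had groups that did not overlap. A kept sign was therefore close to fixed in advance and is no separate support. On plain library sizes 210 genes were higher (1.33%) and 3819 lower (24.1%), and they included 209 of the 701 and all 416.

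**Figure D1:**
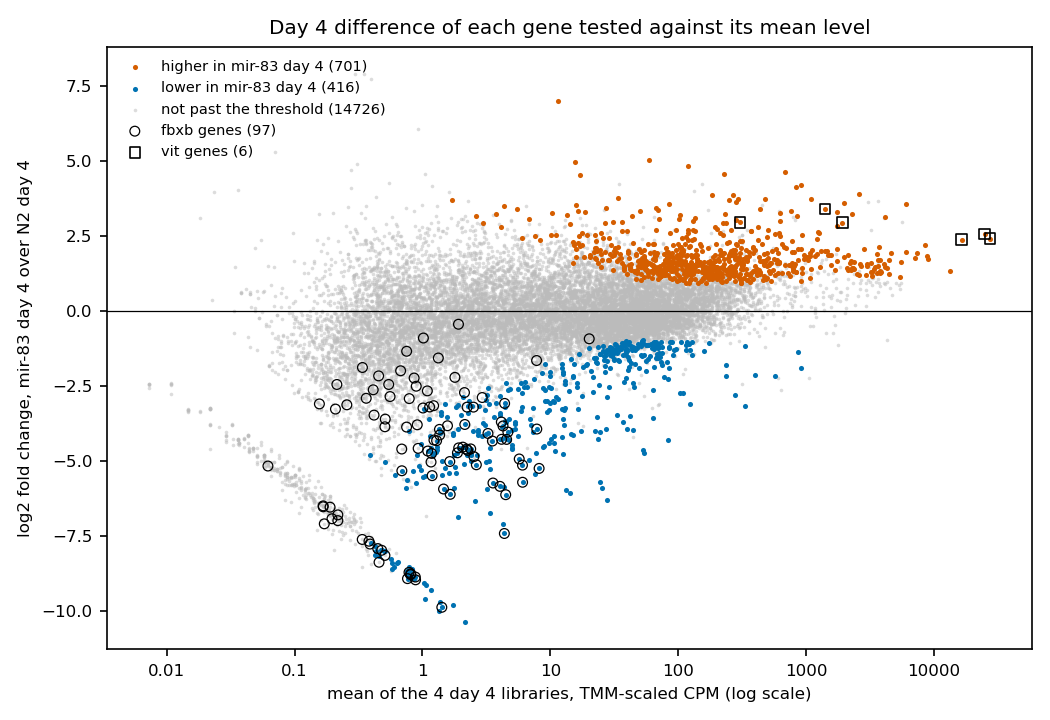
Each point is 1 of the genes tested, with its mean TMM-scaled CPM over the 4 day 4 libraries on a log axis and its log2 fold change of mir-83 day 4 over N2 day 4 on the vertical axis (11 genes with 0 reads in all 4 libraries are not drawn). The 701 higher genes lie mostly to the right, and the 416 lower genes spread to the left and reach past -10. Open circles mark the 97 fbxb genes, all below 0, and open squares the 6 vit genes, all above 2. The diagonal edge at the lower left holds genes with 0 reads in both mir-83 libraries, whose fitted values depend on the prior count.

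Sorted into 5 equal bins by the same mean level over both strains, the share of higher genes climbed with level and the share of lower genes did not. A gene's own change enters its level, so these bins do not separate the 2. From the lowest to the highest bin, 0%, 0.253%, 1.36%, 3.50% and 17.0% of the genes were higher in mir-83. In the same order, 2.34%, 3.50%, 2.46%, 3.41% and 1.42% were lower. The 5 equal bins of exon length showed a weaker gradient, with 3.03% higher in the shortest and 7.45% in the longest. By chromosome, the median log2 fold change was between -0.22 and -0.12 on the 5 autosomes and 0.07 on the X, and on plain library sizes all were negative, with the X at -0.78. The X chromosome also had the smallest share of lower genes, 1.33%, and chromosome II the largest, 3.77% (106 genes).

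**Figure D2:**
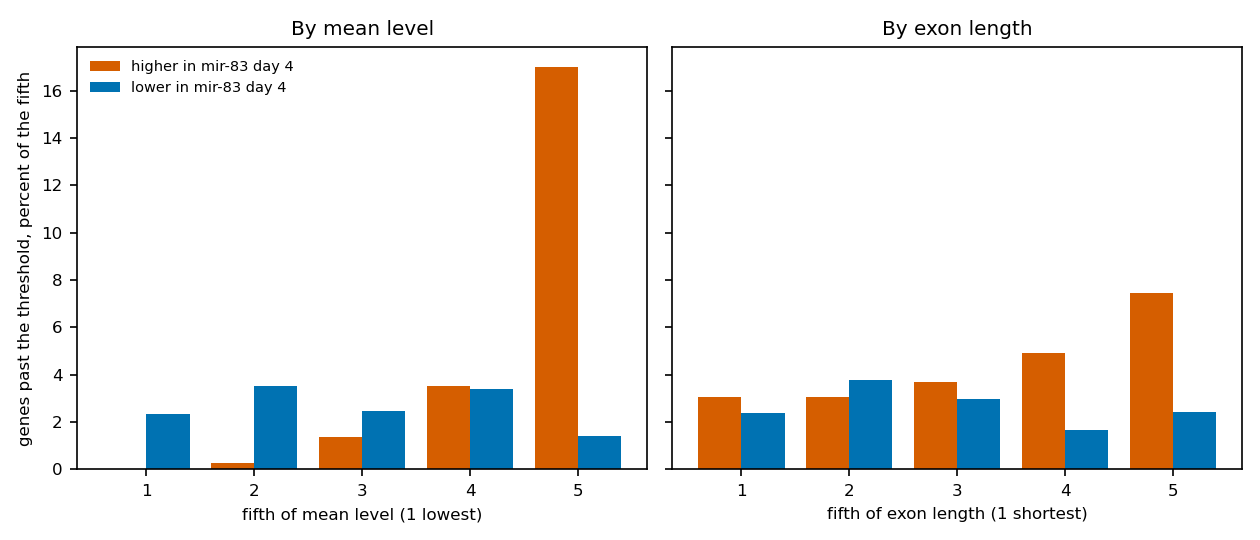
Bars give the percent of genes past the threshold in 5 equal bins of mean level (left) and of exon length (right), orange for higher and blue for lower in mir-83 day 4. The highest bin of level holds 17.0% higher genes against 0% in the lowest, and the longest bin 7.45% against 3.03% in the shortest.

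Enzymes of central carbon metabolism were higher in mir-83. Of 44 genes of glycolysis, gluconeogenesis, the citric acid cycle and the glyoxylate cycle, 26 rose, 0 fell and 18 did not pass, with a median log2 fold change of 1.28 (0.43 on plain library sizes, where 11 rose and 4 fell). Of the 44, 40 lie in the highest of the 5 bins of level, where 17.0% of all genes were higher. The gene pck-1, which encodes the PEPCK that commits carbon to gluconeogenesis, stood at 877 and 880 CPM in mir-83, against 112 and 23.9 CPM in N2. The groups did not overlap, although the N2 libraries differed from each other, and pck-1 rose by 3.73 ± 0.82 on the log2 scale (SE, adjusted p = 0.0383). It lies on chromosome III from 62888 to 66260 (WBcel235, minus strand).

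The glyoxylate cycle gene icl-1, through which worms turn fat into sugar, stood at 3581 and 3664 CPM in mir-83, against 491 and 155 CPM in N2. Both mir-83 libraries were close together and far above either N2 library, and icl-1 rose by 3.61 ± 0.47 (adjusted p = 0.0211). Both of the malate dehydrogenase genes rose, mdh-1 to 1084 and 1183 CPM in mir-83, against 266 and 257 CPM in N2 (2.12 ± 0.27), and mdh-2 by 2.15 ± 0.36. The adjacent glyceraldehyde-3-phosphate dehydrogenase genes gpd-2 and gpd-3, which are near-identical and may share reads, rose by 2.67 ± 0.33 and 2.61 ± 0.36. Steps shared by sugar breakdown and synthesis rose as well, including the aldolase gene aldo-1 (1.84 ± 0.24) and the enolase gene enol-1 (1.95 ± 0.32). Within the citric acid cycle the 2-oxoglutarate dehydrogenase gene ogdh-1 rose by 1.98 ± 0.25 and the citrate synthase gene cts-1 by 1.76 ± 0.28. The lactate dehydrogenase gene ldh-1 rose by 1.41 ± 0.24.

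Genes of the ribosome, translation and respiration rose in part, and none of them fell on the TMM scale. Among 77 genes for proteins of the cytosolic ribosome, 36 rose and 0 fell, with a median of 1.19 (0.35 on plain library sizes, where 9 rose and 1 fell). In 66 of the 77 both mir-83 libraries lay above both N2 libraries, which held for 29.4% of all genes tested. Of 32 translation factor genes 8 rose and 0 fell, with a median of 0.86, but of 0.01 on plain library sizes, where 2 rose and 8 fell. Among them eef-2, which moves the ribosome along the message, stood at 9623 and 12264 CPM in mir-83, against 2417 and 4157 CPM in N2. The groups did not overlap, and eef-2 rose by 1.77 ± 0.30 (adjusted p = 0.0246). Of 52 nuclear genes of the respiratory chain and ATP synthase 22 rose and 0 fell, with a median of 1.02 (0.17 on plain library sizes, where 9 rose and 3 fell). Most genes of these lists lie in the highest of the 5 bins of level, where 17.0% of all genes were higher, against 4.42% over all bins. That bin held 75 of the 77 ribosomal genes, of which 36 rose, and 29 of the 32 translation factor genes, of which 8 rose. It also held 46 of the 52 respiratory genes, of which 22 rose. No test compared these lists with other genes. The complex I gene nuo-5 rose by 2.10 ± 0.30. Of the 5 genes named atp, of ATP synthase, 4 rose, and this family was picked after its values were seen.

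The lists of mitochondrial ribosomal proteins, tRNA synthetases, the nucleolus and the proteasome had 1 to 6 genes higher and 0 lower, a split that turned round on plain library sizes. Of 65 mitochondrial ribosomal protein genes 1 rose, mrps-10 (1.67 ± 0.35), and 0 fell, with a median of -0.02 (0 higher and 26 lower on plain library sizes). Of 31 tRNA synthetase genes 1 rose, cars-1 (1.23 ± 0.29), with a median of 0.18 that was -0.66 on plain library sizes (0 higher and 10 lower). Of 26 genes of the nucleolus and RNA polymerase I 4 rose against a median of -0.22 (2 higher and 14 lower on plain library sizes), among them the snoRNP genes fib-1 (1.45 ± 0.29) and nol-56 (1.80 ± 0.32). Another of the 4, ncl-1, is a repressor of nucleolar size and of fib-1 in worms, and it stood at 310 and 91.5 CPM in mir-83, against 77.6 and 18.3 CPM in N2. Its ranges were separate by a small margin, replicate 1 was the higher library in both strains, and it rose by 2.16 ± 0.27 in the paired model. Of 33 proteasome genes 6 rose and 0 fell, including the 20S core gene pbs-2 (1.29 ± 0.28), and the median of 0.65 was -0.20 on plain library sizes (1 higher and 5 lower). Of the 33, 32 lie in the highest of the 5 bins of level, where 17.0% of all genes were higher, against 18.2% of the list.

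The summed level of cuticle collagen genes was far higher in mir-83. Collagens form the layered exoskeleton and are secreted by the hypodermis, in waves tied to the molts and in part in adults. The 147 collagen genes tested summed to 72844 and 83253 CPM in mir-83, against 6750 and 14379 CPM in N2. Of the 147, 15 rose (10.2%, against 4.42% of all genes), 2 fell (1.36%, against 2.63%) and 130 did not pass. The median of 0.34 was -0.50 on plain library sizes (10 higher and 9 lower). In the highest of the 5 bins of level, where 17.0% of all genes were higher, 10 of the 23 collagens rose. The gene col-80 stood at 1198 and 1398 CPM in mir-83, against 41.2 and 77.7 CPM in N2, a difference of 4.64 ± 1.11 (adjusted p = 0.0463). The gene col-95 stood at 4659 and 5049 CPM in mir-83, against 279 and 457 CPM in N2 (3.90 ± 0.96, adjusted p = 0.0499). The groups did not overlap for either gene. The gene col-43 had the widest gap of the collagens, at 112 and 114 CPM in mir-83, against 7.87 and 0.845 CPM in N2 (5.05 ± 0.88), and its N2 values differed from each other by far more than its mir-83 values. The genes col-160 and col-20 rose by 4.21 ± 0.70 and 4.15 ± 0.66. The collagens that fell were dpy-14, at 1.09 and 0.702 CPM in mir-83, against 16.7 and 20.7 CPM in N2 (-4.39 ± 0.57), and col-121 (-4.81 ± 0.71).

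Most molting and hedgehog-related genes did not pass. Over all genes tested, 4.42% were higher and 2.63% lower. Of 30 molting and cuticle processing genes 0 rose and 1 fell, the fibrillin gene fbn-1 (-2.73 ± 0.60), with a median of 0.32 that was -0.52 on plain library sizes (0 higher and 3 lower). Of 65 hedgehog-related and patched-related genes, which in worms act mostly in cuticle and epidermal secretion, 5 rose (7.69%) and 2 fell (3.08%). Both shares were above those of all genes, and no test compared them. The list median of 0.46 was -0.40 on plain library sizes (1 higher and 2 lower). The genes grd-3 (3.76 ± 0.72), grl-4 (2.98 ± 0.66) and ptr-20 (2.17 ± 0.52) rose, and wrt-10 (-4.25 ± 0.57) and ptr-10 (-3.14 ± 0.76) fell.

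Genes of contractile and structural fibres rose in part, and none fell on the TMM scale. Of 46 genes of the muscle sarcomere and its attachments 16 rose and 0 fell, with a median of 1.56 (0.71 on plain library sizes, where 11 rose and 1 fell). The paramyosin gene unc-15, whose protein forms the core of thick filaments, stood at 739 and 690 CPM in mir-83, against 65.8 and 185 CPM in N2 (2.81 ± 0.53, adjusted p = 0.0275). The groups did not overlap. The troponin T gene tnt-2 rose by 2.94 ± 0.50. Of 20 tubulin and actin genes 9 rose and 0 fell, with a median of 1.39 (0.55 on plain library sizes, where 5 rose and 4 fell), led by the muscle actin gene act-4. It stood at 2725 and 1660 CPM in mir-83, against 370 and 338 CPM in N2 (2.62 ± 0.38). The actin genes act-1 and act-3 are near-identical and may share reads, and both rose by 1.81 ± 0.27. The neuronal alpha tubulin gene mec-12 rose by 2.53 ± 0.50. Of 26 basement membrane genes 3 rose and 0 fell, with a median of 0.01 that was -0.84 on plain library sizes (0 higher and 4 lower), and these were the type IV collagen gene let-2 (2.71 ± 0.64), mig-6 (2.03 ± 0.41) and the dystroglycan gene dgn-1 (1.86 ± 0.44).

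All 4 trap genes, which encode the translocon-associated protein complex of the endoplasmic reticulum, rose, and they were chosen after their values were seen, as were the other genes named beside them. The gene trap-1 stood at 464 and 386 CPM in mir-83, against 143 and 113 CPM in N2 (1.73 ± 0.23), and the other 3 rose by between 1.11 and 1.44. The channel gene sec-61.A stood at 941 and 804 CPM in mir-83, against 239 and 200 CPM in N2 (1.99 ± 0.28). The COPII coat gene sec-23 rose by 1.95 ± 0.26 and the COPI coat gene copa-1 by 1.54 ± 0.25, and none of these groups overlapped. Of the 18 genes with a sec symbol 4 rose and 3 fell, with a median of -0.21 (2 higher and 10 lower on plain library sizes). Of 8 exocyst genes, which tether vesicles at the plasma membrane and were also picked after their values were seen, 0 rose and 3 fell, sec-5 (24.1 and 27.4 CPM in mir-83, against 47.9 and 55.5 CPM in N2, adjusted p = 0.0485), sec-6 (30.5 and 38.6 CPM in mir-83, against 60.3 and 77.9 CPM in N2, adjusted p = 0.0398) and sec-10 (-1.14 ± 0.26). Both mir-83 libraries lay below both N2 libraries in all 8, which held for 35.4% of all genes tested.

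Lysosomal genes rose in part. Of 21 lysosomal proteases 7 rose and 0 fell, with a median of 1.43 (0.55 on plain library sizes, where 2 rose and 0 fell), including the aspartic protease gene asp-1, at 5604 and 6488 CPM in mir-83, against 1532 and 1161 CPM in N2 (2.14 ± 0.37). Of 21 V-ATPase genes, whose pump acidifies the lysosome, 5 rose and 0 fell, and the median of 0.80 was -0.05 on plain library sizes (3 higher and 4 lower). All 21 lie in the highest of the 5 bins of level, where 17.0% of all genes were higher, against 23.8% of the list. The subunit gene vha-12 rose by 2.21 ± 0.28. Of 38 autophagy genes 1 rose and 3 fell, with a median of -0.21 (0 higher and 23 lower on plain library sizes). The one that rose was the late endosome GTPase gene rab-7 (1.36 ± 0.25). The gene epg-2, which links protein aggregates to autophagy in embryos, stood at 7.03 and 6.74 CPM in mir-83, against 79.0 and 74.5 CPM in N2 (-3.49 ± 0.53), and atg-16.2 and vps-34 fell by 1.45 ± 0.32 and 1.11 ± 0.27.

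Yolk protein genes, the intestine's main secreted product, rose, and so did some genes of fat handling. All 6 vitellogenin genes rose, with a median of 2.77 (1.90 on plain library sizes), and their sum was 105090 and 142300 CPM in mir-83, against 22179 and 20112 CPM in N2. The gene far-2, which encodes an abundant secreted fatty acid and retinol binding protein, rose by 1.75 ± 0.38. Among 91 genes of lipases and beta-oxidation, 12 rose and 0 fell, and the median of 0.49 was -0.39 on plain library sizes (4 higher and 8 lower) and 0.00 without N2 day 4 replicate 2. The carnitine palmitoyltransferase gene cpt-3, of the shuttle that carries fatty acids into mitochondria, stood at 216 and 243 CPM in mir-83, against 17.6 and 1.98 CPM in N2 (4.84 ± 0.91). Its relative cpt-1 rose by 1.74 ± 0.28, and the groups overlapped for neither. Of 25 genes of fatty acid desaturation and its regulators 4 rose and 0 fell, with a median of 0.69 that was -0.16 on plain library sizes (0 higher and 3 lower). They included the fatty acid synthase gene fasn-1 (2.04 ± 0.38), the acetyl-CoA carboxylase gene pod-2 (1.48 ± 0.32) and mdt-15, a coactivator of lipid genes (1.25 ± 0.24). Genes of fat synthesis and of fat breakdown were both among those that rose.

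Of 25 intestinal identity and brush border genes 3 rose and 0 fell, the actin gene act-5 and the intermediate filament genes ifc-2 (2.13 ± 0.29) and ifb-2 (1.32 ± 0.30), with a median of 0.44 that was -0.41 on plain library sizes (2 higher and 0 lower). The median was -0.08 without N2 day 4 replicate 2 and 1.21 without N2 day 4 replicate 1. Of 24 saposin-like genes, many of them intestinal, 3 rose and 0 fell, with a median of 0.69 that was -0.17 on plain library sizes (2 higher and 1 lower), 0.14 without N2 day 4 replicate 2 and 1.19 without N2 day 4 replicate 1. The saposin-like gene spp-12 stood at 567 and 440 CPM in mir-83, against 35.5 and 35.4 CPM in N2 (3.86 ± 0.72). The largest rise of any gene named was that of phat-4, whose family is named for pharyngeal gland proteins related to a toxin. It had 310 and 485 reads in mir-83, against 4 and 7 reads in N2, or 22.5 and 22.7 CPM in mir-83, against 0.174 and 0.204 CPM in N2 (adjusted p = 0.0225). Of the 6 phat genes tested 3 rose, the others being phat-7 (2.53 ± 0.56) and phat-8 (1.44 ± 0.31), and 0 fell. This family was picked for counting after its values were seen.

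Of 23 osmolyte genes 7 rose and 0 fell, with a median of 0.87 (0.03 on plain library sizes, where 5 rose). The gene osm-11, a secreted regulator of the osmotic response, stood at 2140 and 907 CPM in mir-83, against 305 and 69.0 CPM in N2 (3.19 ± 0.44), and the inositol transporter gene hmit-1.2 stood at 26.5 and 22.5 CPM in mir-83, against 3.09 and 2.24 CPM in N2 (3.22 ± 0.51). The groups overlapped for neither. Of 22 neprilysin peptidase genes 2 rose and 0 fell against a median of -0.79. The gene nep-22 stood at 29.0 and 36.8 CPM in mir-83, against 1.09 and 1.83 CPM in N2 (4.54 ± 0.58). Other genes among the 15 largest rises were the carboxypeptidase-like gene ctsa-1.2 (3.74 ± 0.70), epic-1 (3.74 ± 0.48), and the adjacent genes gfi-1 (3.72 ± 0.68) and bcf-1 (3.63 ± 0.53) on chromosome V.

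**Figure D3:**
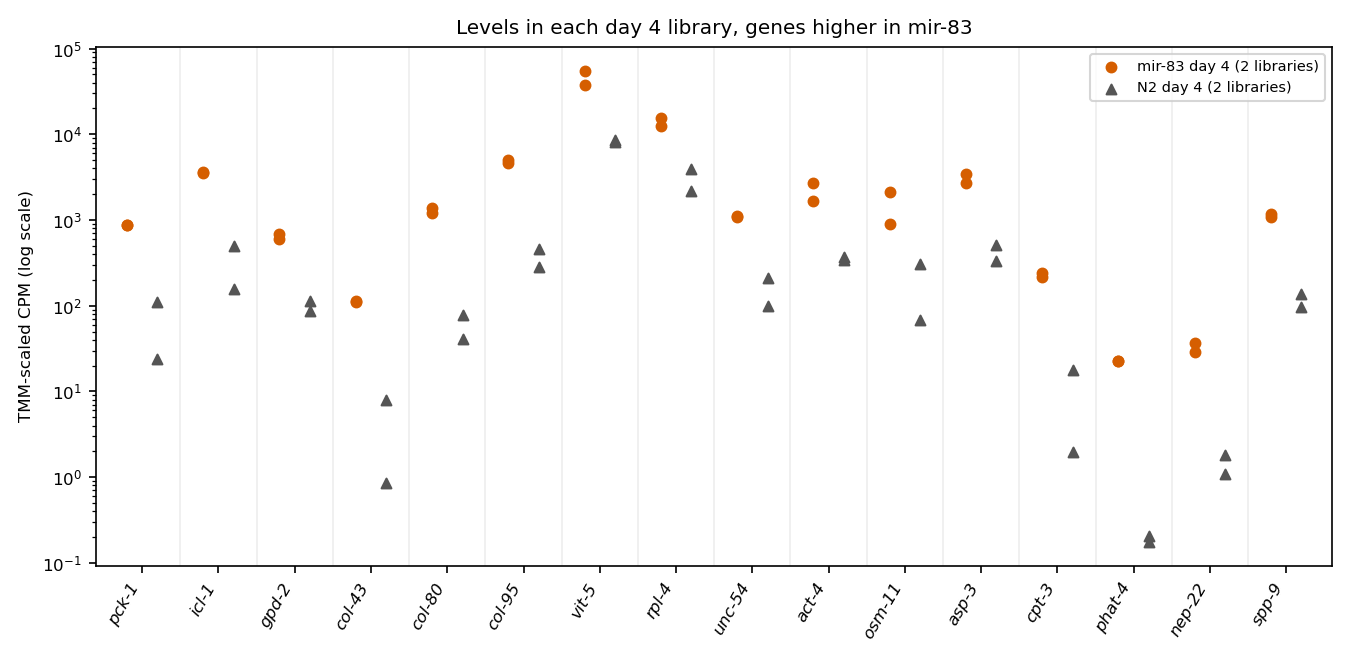
Each column is a gene, with TMM-scaled CPM on a log axis in the 2 mir-83 day 4 libraries (orange circles, left) and the 2 N2 day 4 libraries (grey triangles, right). In all 16 genes drawn both circles lie above both triangles, and in genes such as pck-1, col-43 and cpt-3 the N2 libraries are further apart than the mir-83 libraries.

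Of 32 oocyte, eggshell and maternal regulator genes 7 rose and 0 fell, with a median of 1.12 (0.27 on plain library sizes, where 1 rose and 1 fell). All 32 lie in the highest of the 5 bins of level, where 17.0% of all genes were higher, against 21.9% of the list. The zinc finger gene mex-1, a maternal regulator of early embryonic fates, stood at 589 and 531 CPM in mir-83, against 167 and 144 CPM in N2 (1.85 ± 0.37), and lin-41, which controls oocyte growth, rose by 1.54 ± 0.29. Of 44 germ granule, germ cell fate and meiosis genes 4 rose and 0 fell, with a median of -0.18 that was 0.14 without N2 day 4 replicate 2, but on plain library sizes 2 were higher and 24 lower, with a median of -1.03. Those that rose were the stem cell gene sygl-1 (2.10 ± 0.35), daz-1 (1.64 ± 0.29) and the germ granule helicase genes glh-1 (1.35 ± 0.24) and glh-2 (1.40 ± 0.31). Of 90 sperm genes, with a median of -0.41 that was -1.38 in replicate 1 and 0.49 in replicate 2, 0 passed by edgeR in either direction (0 higher and 3 lower at an unadjusted p under 0.05, and 0 higher and 1 lower by DESeq2). Of 26 genes of microRNA processing and effectors 4 rose and 0 fell, and the median of 0.53 was -0.32 on plain library sizes (1 higher and 5 lower). They included the decapping helicase gene cgh-1 (1.60 ± 0.28) and the CCR4-NOT genes ntl-2 (1.43 ± 0.30) and ntl-3 (1.29 ± 0.27), which act in the decay of messages that microRNAs bind.

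The lower genes were led by F-box genes of the fbxb and fbxc families. F-box proteins are the exchangeable part of SCF ubiquitin ligases, which hold them through a Skp1 protein and mark bound proteins for destruction. Worms have very many of them, in the families fbxa, fbxb and fbxc. Of 282 F-box genes tested 0 rose and 51 fell (0 and 138 on plain library sizes), with a median log2 fold change of -1.87, or -1.69 with genes at 0 reads in both mir-83 libraries set at their bound. In 220 of the 282 both mir-83 libraries lay below both N2 libraries, which held for 35.4% of all genes tested. Of 97 fbxb genes 40 fell (41.2%), of 42 fbxc genes 9 fell (21.4%), and of 143 fbxa genes 2 fell (1.40%), against 2.63% of all genes. The fbxa share was thus below that of all genes. The medians of the 3 families were -4.33, -2.45 and -0.89 (-3.78, -2.07 and -0.88 with zeros at their bound). The fbxb genes together reached 32.6 and 42.9 CPM in mir-83, against 333 and 357 CPM in N2, and in 94 of the 97 both mir-83 libraries lay below both N2 libraries.

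Many fbxb genes had no reads in the mutant. In mir-83, 22 of the 97 had 0 reads in both libraries, and in N2 none had. Over all genes tested, 410 had 0 reads in both mir-83 libraries and 18 in both N2 libraries, and a gene at 0 in mir-83 day 4 passed the filter through its reads in other groups. The gene fbxb-78, on chromosome IV from 4737558 to 4738862, had 0 and 0 reads in mir-83, against 66 and 96 reads in N2, which is at least 33.1-fold lower when mir-83 is set at a floor of 3 reads over its 2 libraries. By the same floor fbxc-22 was at least 32.3-fold lower and fbxb-96 at least 21.1-fold lower. The gene fbxb-1 had 0 and 2 reads in mir-83, against 231 and 252 reads in N2, a ratio of 148 (95% interval 40.8 to 1226, counting error only). The fbxc gene fbxc-40 stood at 0.145 and 0.187 CPM in mir-83, against 6.35 and 6.70 CPM in N2 (-5.27 ± 0.69). Of the 97 fbxb genes 57 lie on chromosome II, and 24 of the 40 that fell are there. Many fbxb genes are similar in sequence, so how reads divide among them is uncertain.

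Some of the Skp1-related partners fell too. Of 19 skr genes 6 fell and 0 rose, with a median of -1.12. The gene skr-10 stood at 1.67 and 1.69 CPM in mir-83, against 32.5 and 24.6 CPM in N2 (-4.11 ± 0.64, adjusted p = 0.0218), and the neighbours skr-8, skr-9 and skr-13 on chromosome IV, which may share reads, were lower by -2.70 ± 0.65, -3.27 ± 0.72 and -3.29 ± 0.74. The abundant skr-1, the Skp1 of most SCF ligases, did not pass, at 473 and 322 CPM in mir-83, against 418 and 290 CPM in N2 (0.16 ± 0.23). In the related BTB family, whose proteins pair with another cullin, 3 of 15 btb genes fell, among them btb-11 (-3.69 ± 0.84) and btb-10 (-3.31 ± 0.78), while 0 of 28 math genes and 1 of 34 bath genes fell.

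Genes of the early zygotic list were the other main group. The list was matched by symbol, and whether each member is first transcribed in the embryo was not tested. Of 57 early zygotic genes 1 rose and 15 fell (0 and 27 on plain library sizes), with a median of -2.50, or -2.07 with zeros at their bound. In 43 of the 57 both mir-83 libraries lay below both N2 libraries, which held for 35.4% of all genes tested. The class sdz, named from loss of expression when the maternal factor skn-1 is removed, held 12 of the 28 sdz genes tested below and 0 above, and it had the largest share of lower genes, 42.9%, of the 92 symbol classes with at least 15 genes. This class overlaps the early zygotic list, so its calls are not a separate result. The gene sdz-28 stood at 0.217 and 0.562 CPM in mir-83, against 14.5 and 14.9 CPM in N2 (-5.43 ± 0.88). The gene sdz-11 had 0 and 0 reads in mir-83, against 37 and 52 reads in N2, at least 18.2-fold lower. The gene vet-2, from a set named for very early transcripts, stood at 1.52 and 2.44 CPM in mir-83, against 22.3 and 24.2 CPM in N2 (-3.59 ± 0.64), and pes-10, a classic marker of the onset of embryonic transcription, had 2 and 1 reads in mir-83, against 41 and 40 reads in N2, a ratio of 16.6 (95% interval 5.47 to 82, counting error only). None of these groups overlapped.

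The summed level of the early zygotic list did not fall, at 1856 and 1860 CPM in mir-83, against 1832 and 1675 CPM in N2. Abundant members dominate the sum, first of all cey-2, which did not pass, at 1101 and 1100 CPM in mir-83, against 878 and 565 CPM in N2. Since cey-2 is on the list by its symbol only, the sum says little about the scarcer members. In whole worms fewer cells of a type and less RNA per cell cannot be told apart, and eggs inside the mothers are part of the sample. The part that embryonic RNA has in the other lower groups was not tested.

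Some developmental genes named by the size of their change or picked after their values were seen also fell. The homeobox gene unc-39 had 0 reads in both mir-83 libraries, against 33 and 39 reads in N2, at least 14.7-fold lower. The proneural gene lin-32 also had 0 reads in mir-83, at least 9.40-fold lower. The gene ceh-43 stood at 1.01 and 2.62 CPM in mir-83, against 18.3 and 16.8 CPM in N2 (-3.30 ± 0.60), and of the 62 genes with a ceh or tbx symbol, a list that leaves out homeobox genes named otherwise such as unc-39, it was the 1 that fell, or 1.61% against 2.63% of all genes. Of that list 0 rose, with a median of -0.54 (0 higher and 18 lower on plain library sizes). The forkhead genes fkh-5 and fkh-8 fell by 3.96 ± 0.79 and 3.95 ± 0.66. The secreted lipocalin gene lpr-3 and its neighbour lpr-6, which act in the outer matrix of embryonic epithelia, were both lower, lpr-6 at 0 reads in both mir-83 libraries and at least 11.5-fold lower. The cadherin gene cdh-4 stood at 7.10 and 9.37 CPM in mir-83, against 36.4 and 61.5 CPM in N2 (-2.54 ± 0.42).

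Some chromatin and kinetochore genes fell. Of 92 histone modification genes 1 rose and 6 fell, with a median of -0.30 (0 higher and 49 lower on plain library sizes). In 47 of the 92 both mir-83 libraries lay below both N2 libraries, which held for 35.4% of all genes tested. The demethylase gene jmjd-3.2 stood at 0.580 and 0.562 CPM in mir-83, against 14.9 and 14.6 CPM in N2 (-4.74 ± 0.77). The gene mes-3, of a complex that methylates histone H3, stood at 44.8 and 34.3 CPM in mir-83, against 108 and 97.5 CPM in N2 (-1.38 ± 0.23). The acetyltransferase gene mys-4 and the sirtuin gene sir-2.1 fell by 1.62 ± 0.30 and 1.53 ± 0.25, while the deacetylase gene hda-10 rose by 1.46 ± 0.28. Among remodelling factors xnp-1, the worm ATRX, fell by 1.71 ± 0.31 and the SWI/SNF core gene snfc-5 by 1.02 ± 0.24, both named after their values were seen.

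Of 11 dosage compensation genes, which lower X expression in hermaphrodites, 0 rose and 1 fell. Both mir-83 libraries lay below both N2 libraries in 9 of them, which held for 35.4% of all genes tested. The list median was -0.70 (-1.55 on plain library sizes, where 9 fell). The gene that fell was sdc-2, the hermaphrodite factor that recruits the complex to the X, at 3.33 and 3.75 CPM in mir-83, against 16.3 and 32.3 CPM in N2 (-2.65 ± 0.64). Of the 5 kbp genes, of the outer kinetochore, 3 fell, and kbp-2 stood at 13.4 and 13.2 CPM in mir-83, against 40.0 and 44.4 CPM in N2 (-1.67 ± 0.30). The kinetochore genes mis-12 and ska-1 fell by 1.27 ± 0.30 and 1.55 ± 0.35. The kbp family, kbp-2, mis-12 and ska-1 were picked after their values were seen, so the count of 3 of the 5 is a description only. Of 86 cell cycle and replication genes 1 rose and 2 fell, or 2.33% against 2.63% of all genes, with a median of -0.22 that was 0.03 without N2 day 4 replicate 2 (0 higher and 52 lower on plain library sizes). Those that fell were the licensing gene cdt-1 (-1.30 ± 0.30) and the clamp loader gene rfc-4 (-1.34 ± 0.24). Of 51 DNA repair genes 0 rose and 2 fell, rad-50 (-1.15 ± 0.25) and cku-80 (-1.05 ± 0.26), with a median of -0.26 (0 higher and 32 lower on plain library sizes). Of 51 genes of the endogenous siRNA and piRNA pathways 2 rose and 3 fell, with a median of -0.37 (0 higher and 29 lower on plain library sizes). The RNA-dependent RNA polymerase genes rrf-1 and rrf-2 fell by 1.25 ± 0.25 and 1.87 ± 0.38, and the Argonaute gene wago-4 rose by 1.32 ± 0.29. Of 68 histone genes 1 rose and 1 fell, with a median of -0.59 (0 higher and 7 lower on plain library sizes) that was 0.22 in replicate 1 and -1.27 in replicate 2. Of 9 nonsense-mediated decay genes 0 passed by edgeR (0 higher and 1 lower at an unadjusted p under 0.05, and 0 by DESeq2).

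Of 16 small heat shock genes 2 rose and 6 fell, with a median of -0.70 (0 higher and 9 lower on plain library sizes). The genes that fell were all of the hsp-16 family, which cells induce under heat and other stress, and hsp-16.41 stood at 0.290 and 1.03 CPM in mir-83, against 32.3 and 76.7 CPM in N2 (-6.28 ± 0.86). The gene sip-1, a small chaperone of oocytes and embryos, stood at 5552 and 5101 CPM in mir-83, against 2038 and 2334 CPM in N2 and was one of the 2 that rose (1.28 ± 0.28, not past the threshold on plain library sizes). Of 30 large cytosolic chaperone genes 3 rose and 1 fell, with a median of 0.34, but on plain library sizes 0 were higher and 12 lower, with a median of -0.51. The Hsp70 gene hsp-1 rose by 1.45 ± 0.28, the chaperonin genes cct-1 and cct-7 by 1.26 ± 0.25 and 1.37 ± 0.29, and the Hsp70 cofactor gene bag-1 fell by 1.24 ± 0.29.

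On the TMM scale the share of higher genes was 17.4% for superoxide and peroxide, 15.4% for insulin signalling, 14.3% for TOR and AMPK and 4.17% for the ER unfolded protein response, against 4.42% of all genes, and no test compared them with other genes. Of 24 ER unfolded protein response genes 1 rose, the ubiquitin ligase gene sel-11 (1.84 ± 0.25), and 1 fell, ckb-2 (-2.16 ± 0.41), with a median of 0.09. Of 20 mitochondrial unfolded protein response genes 1 rose, tomm-40 (1.12 ± 0.25). Of 23 genes that handle superoxide and peroxide or belong to the skn-1 response 4 rose and 0 fell, the catalase genes ctl-1 (1.87 ± 0.27) and ctl-3 (1.86 ± 0.25), the peroxiredoxin gene prdx-3 (1.24 ± 0.29) and the dismutase gene sod-1 (1.23 ± 0.23). Of 26 insulin signalling and DAF-16 output genes 4 rose and 1 fell, the DAF-16 regulated gene dod-24, at 4.64 and 5.95 CPM in mir-83, against 31.5 and 107 CPM in N2 (-3.70 ± 0.91). Of 21 TOR, AMPK, sirtuin and HLH-30 genes 3 rose and 1 fell, with the AMPK gene aakg-1 at 1.68 ± 0.34. The medians of these 5 lists lay between 0.09 and 0.26, and all were negative on plain library sizes. On that scale the ER list had 1 higher and 11 lower, the mitochondrial list 0 and 8, the superoxide list 2 and 10, the insulin list 2 and 6 and the TOR list 0 and 7.

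**Figure D4:**
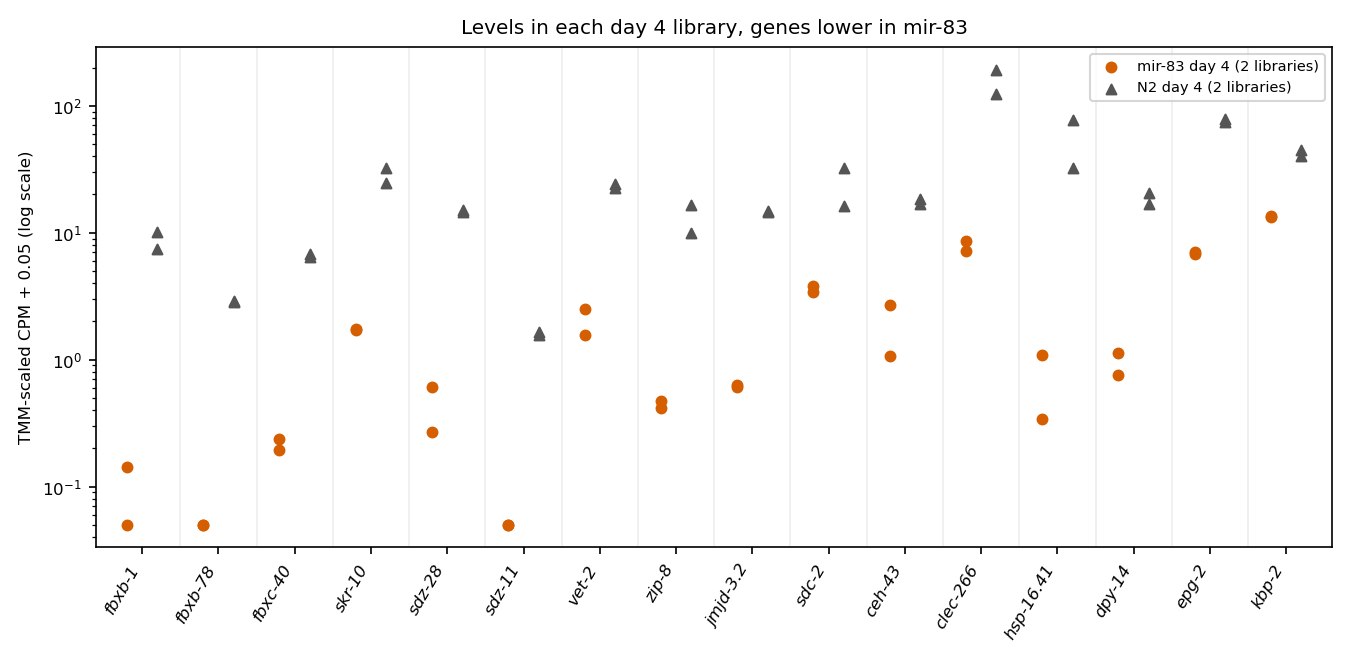
Each column is a gene, with TMM-scaled CPM plus 0.05 on a log axis in the 2 mir-83 day 4 libraries (orange circles, left) and the 2 N2 day 4 libraries (grey triangles, right). In all 16 genes drawn both circles lie below both triangles, and circles at 0.05 are libraries with 0 reads.

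Most genes of the neuronal, immune and regulatory families did not pass. Over all genes tested, 4.42% were higher and 2.63% lower, and no test compared these lists with other genes. Of 98 flp and nlp neuropeptide genes 3 rose and 0 fell, flp-33 (2.44 ± 0.59), nlp-18 (2.21 ± 0.49) and nlp-12 (1.78 ± 0.42), and the median of 0.75 was -0.10 on plain library sizes (0 higher and 3 lower). Of the neuropeptide genes 3.06% were higher. Of 34 synaptic and neuropeptide processing genes 2 rose (5.88%) and 0 fell, the processing enzyme genes egl-3 and egl-21, with a median of 0.34 that was -0.51 on plain library sizes. Of 33 insulin-like peptide genes 0 passed by edgeR (5 higher and 1 lower at an unadjusted p under 0.05, and 2 higher and 0 lower by DESeq2). The TGF-beta ligand gene daf-7, made in sensory neurons, stood at 10.3 and 9.55 CPM in mir-83, against 1.48 and 0.583 CPM in N2 (3.39 ± 0.69). Of 207 chemoreceptor genes by symbol 3 rose and 2 fell, with a median of -0.83 (1 higher and 23 lower on plain library sizes), but 4 of these 5 are srlf and srpa genes, which share only the first letters of their symbols with that class, and the remaining one, str-31, had 0 reads in both mir-83 libraries and was at least 13.5-fold lower.

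Of 136 C-type lectin genes 4 rose and 4 fell, or 2.94% each way, against 4.42% higher and 2.63% lower of all genes. Their median of -0.01 turned positive in 12 of the alternative fits and was -0.86 on plain library sizes (1 higher and 14 lower). The gene clec-266 stood at 8.62 and 7.12 CPM in mir-83, against 192 and 123 CPM in N2 (-4.31 ± 0.52), and clec-63 stood at 4257 and 4934 CPM in mir-83, against 976 and 1208 CPM in N2 (2.08 ± 0.38). The groups did not overlap for either lectin. The largest fitted fall of any gene was that of clec-15 (H16D19.1), with 0 and 0 reads in mir-83, against 10 and 283 reads in N2, so that most of its N2 reads came from 1 library. Of 13 lysozyme genes 0 passed by edgeR (3 higher and 0 lower at an unadjusted p under 0.05, and 1 higher by DESeq2), and of 41 antimicrobial peptide genes 0 passed by edgeR (6 higher and 0 lower unadjusted, and 6 higher by DESeq2). Of 44 glutathione S-transferase genes 2 rose and 0 fell, gst-10 (1.60 ± 0.37) and gst-20 (1.83 ± 0.45), of 67 cytochrome P450 genes 1 rose, cyp-37A1 (1.96 ± 0.41), and of 65 UDP-glycosyltransferase genes 0 passed by edgeR (4 higher and 4 lower unadjusted, and 3 higher and 0 lower by DESeq2). Of the glutathione S-transferase genes 4.55% were higher and of the cytochrome P450 genes 1.49%, against 4.42% of all genes. The medians of the lysozyme, antimicrobial peptide, glutathione S-transferase, cytochrome P450 and UDP-glycosyltransferase lists were 0.12, 0.80, 0.47, 0.19 and 0.23, and all were negative on plain library sizes.

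Of 189 nuclear hormone receptor genes 2 rose and 3 fell, or 1.06% and 1.59%, against 4.42% and 2.63% of all genes. Their median of -0.44 was 0.02 without N2 day 4 replicate 1 (0 higher and 26 lower on plain library sizes). The receptor gene nhr-172 had 0 and 0 reads in mir-83, against 42 and 41 reads in N2, at least 17.0-fold lower, and nhr-1 rose by 1.91 ± 0.39. Of 22 bZIP factor genes 2 rose (9.09%, against 4.42% of all genes) and 1 fell (4.55%, against 2.63%). The one that fell, zip-8, stood at 0.362 and 0.421 CPM in mir-83, against 16.4 and 9.82 CPM in N2 (-4.98 ± 0.56).

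The medians of 19 lists changed sign when 1 of the 4 day 4 libraries was left out. Without N2 day 4 replicate 2 those of the intestinal, lysozyme (-0.47), cytochrome P450 (-0.23), UDP-glycosyltransferase (-0.03), basement membrane (-0.24) and bZIP (-0.04) lists turned negative, and those of the germ granule, cell cycle, nucleolus (0.02) and mitochondrial ribosome (0.19) lists positive. Without mir-83 day 4 replicate 1 the molting (-0.21), insulin-like peptide (-0.03) and ER (-0.06) lists also turned negative and the sperm list positive (0.23). Without N2 day 4 replicate 1 the nuclear receptor and C-type lectin (0.67) lists turned positive, and the mitochondrial unfolded protein response list came to just under 0. Without mir-83 day 4 replicate 2 the histone list turned positive (0.13) and the tRNA synthetase list negative (-0.05).

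**Figure D5:**
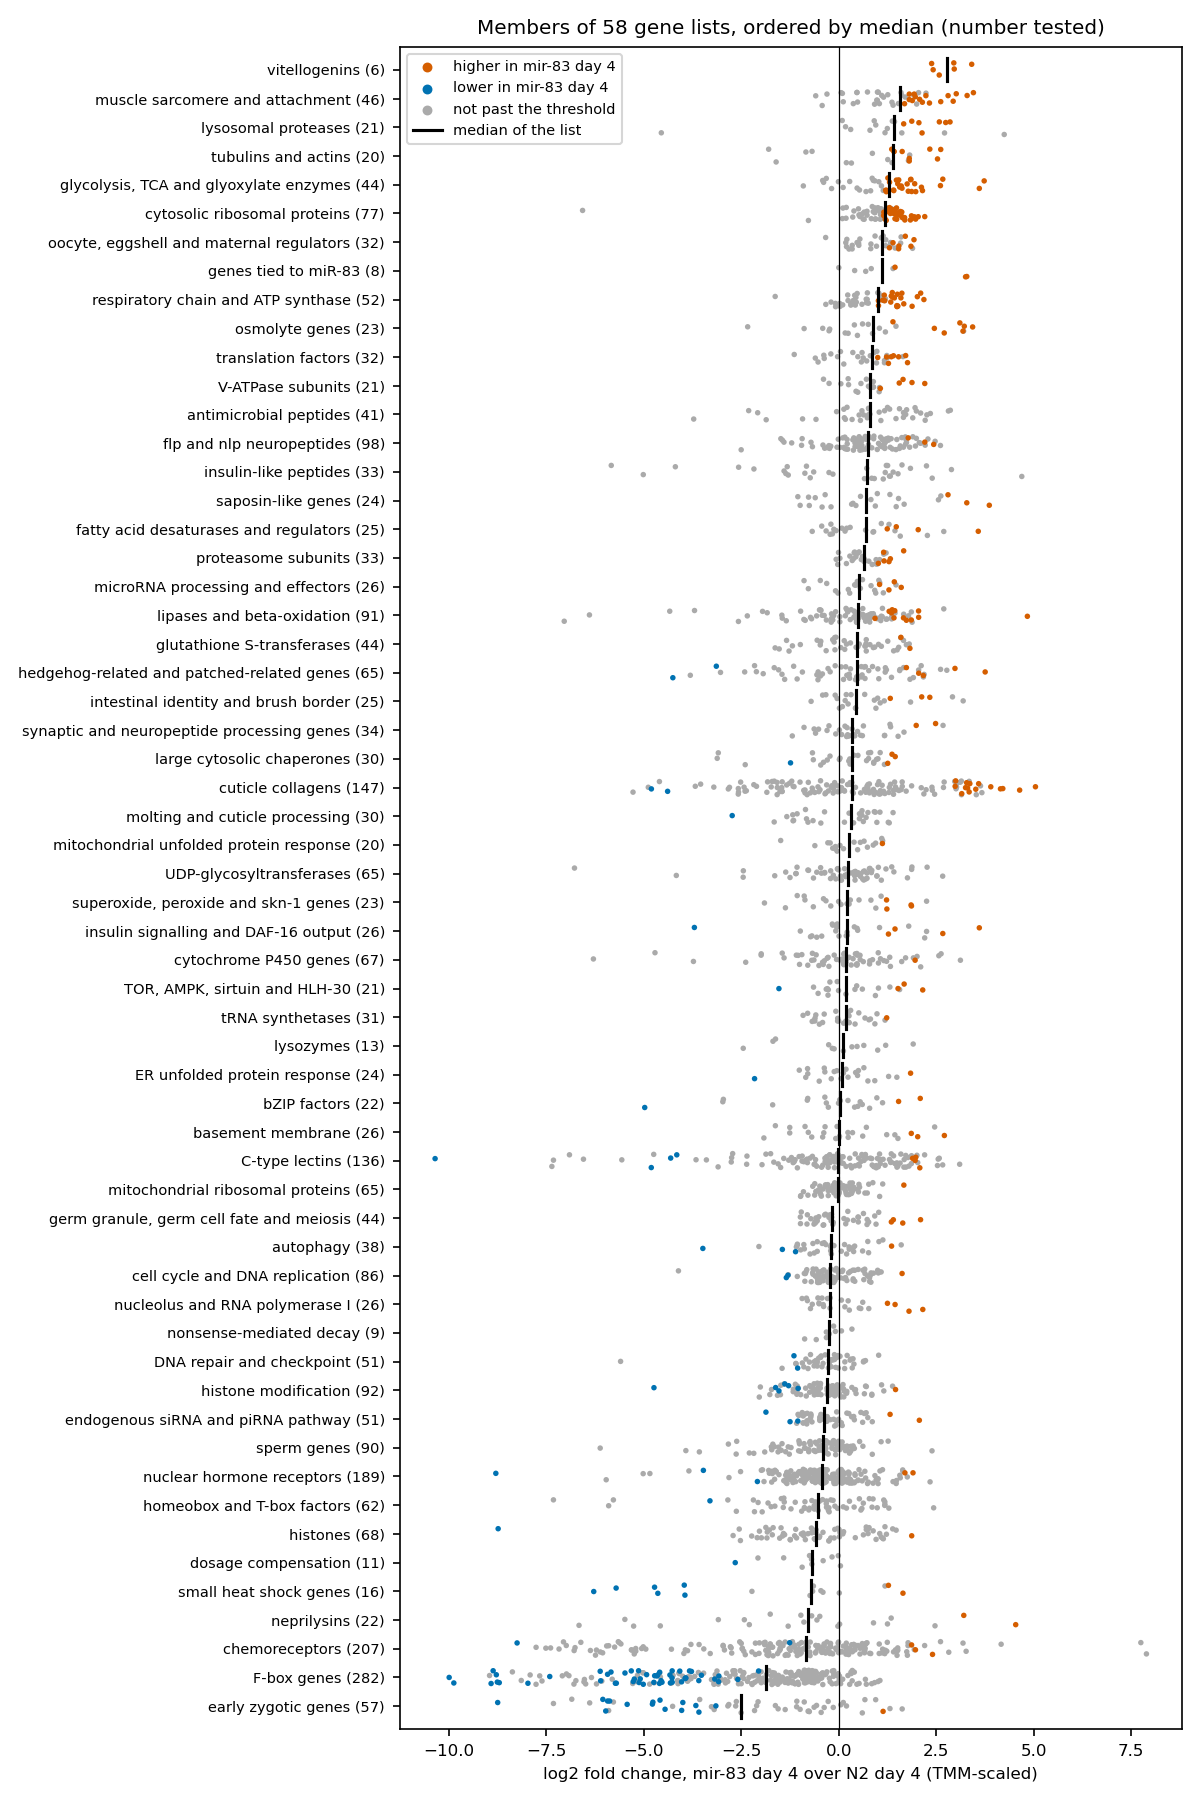
Each row is a gene list with the number of members tested, each point a member's log2 fold change of mir-83 day 4 over N2 day 4 on the TMM scale, and the black bar the median. The vitellogenins stand at the top with a median of 2.77 and the early zygotic genes at the bottom with -2.50. Of the 58 lists 38 have a positive median, and 27 of those turn negative on plain library sizes. The chemoreceptor row includes srlf and srpa genes.

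Of 8 genes named in connection with miR-83, a list chosen with results of these data known, 3 rose and 0 fell, with a median of 1.11 (0.25 on plain library sizes). The saposin-like gene spp-9 stood at 1080 and 1165 CPM in mir-83, against 97.5 and 139 CPM in N2, and the collagen gene col-178 at 3446 and 4622 CPM in mir-83, against 283 and 732 CPM in N2. The forkhead factor gene daf-16 stood at 221 and 121 CPM in mir-83, against 78.8 and 45.9 CPM in N2. These 3 groups did not overlap, and replicate 1 was the higher library in both strains for daf-16. The lysosomal channel gene cup-5 stood at 82.7 and 93.2 CPM in mir-83, against 56.2 and 76.5 CPM in N2, and did not pass, nor did cdc-42 at 321 and 197 CPM in mir-83, against 162 and 121 CPM in N2. The integrin gene pat-3 overlapped between the groups, at 114 and 100 CPM in mir-83, against 103 and 111 CPM in N2. The genes peb-1 and din-1 did not pass, at 20.2 and 13.2 CPM in mir-83, against 12.4 and 2.77 CPM in N2 for peb-1, and at 757 and 1071 reads in mir-83, against 574 and 1647 reads in N2 for din-1, and on the CPM scale both groups of libraries were separate by small margins. All 8 genes were among the 15843 tested, and 4.42% of those were higher.

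The day 12 libraries, compared in the same model, gave no call for any gene tested. The 701 genes higher at day 4 had a median log2 fold change of -0.20 at day 12, with 215 positive and 486 negative, and the 416 lower genes had 0.22, with 306 positive and 109 negative. The median over all genes at day 12 was -0.03. Of all 15843 genes tested 0 passed there, so the 0 calls among the 701 and the 416 are not particular to them. The day 12 and day 4 comparisons use different libraries, but the mir-83 day 12 libraries were unlike each other (r = 0.894 across genes). Replicate 2 of mir-83 day 12 correlated at 0.93 and 0.95 with the N2 day 4 libraries, closer than with its own replicate. With the N2 day 12 libraries it correlated at 0.93 and 0.93. Replicate 1 correlated at 0.88 and 0.84 with N2 day 4 and at 0.98 and 0.95 with N2 day 12. The cause of this was not tested, and it limits what the day 12 values can show. For the 701 genes replicate 1 gave a day 12 median of -0.31 and replicate 2 one of -0.06, and for the 416 these were -0.24 and 0.53. For example, icl-1 stood at 105 and 92.6 CPM in mir-83 day 12, against 224 and 225 CPM in N2 day 12, far below its day 4 level in mir-83. The fbxb genes summed to 134 and 401 CPM in mir-83 day 12, against 180 and 179 CPM in N2 day 12, and so overlapped there. The gene nep-22 was positive at both ages, at 1.99 and 5.98 CPM in mir-83 day 12, against 0.308 and 0.356 CPM in N2 day 12 (3.43 ± 0.57, not past the threshold). A direct test of the difference between the ages passed for 0 genes (edgeR, lowest adjusted value 0.0549, with 2911 genes under 0.05 before adjustment), so for no single gene was the strain effect shown to differ between day 4 and day 12.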

How the data were processed

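RNA of whole worms was sequenced, and the authors deposited 1 sheet for each replicate number, holding raw read counts of transcripts. The submitters' processing notes name Bowtie2, edgeR and the genome build ce11, without versions, and no source used here says whether counting used strand. Without strand, a gene's reads cannot be separated from those of an overlapping or antisense neighbour. The replicate 1 sheet had 30443 lines and the replicate 2 sheet 29023, under different annotations. Transcript counts were summed per gene with the Ensembl gene annotation of WBcel235, the same assembly as ce11, leaving 215 and 276 lines unmatched (0.0908% and 0.242% of reads). Genes in 1 sheet only, between 0.500% and 2.23% of the matched day 4 reads, were left out, and mir-83 itself was not analysed here.

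Counts of all 8 libraries were fitted with edgeR 4.0.16 (R 4.3.3, TMM factors, filterByExpr, quasi-likelihood test), with a term for each strain and age and the replicate number as a block, so that the 4 groups shared 1 estimate of spread (biological coefficient of variation 0.429, 3 residual degrees of freedom). Same-numbered libraries deviated together in all 6 pairs of groups (correlations 0.118 to 0.415), so the numbers were taken to pair the libraries. Each number also has its own sheet and annotation, so these correlations cannot show that worms or cultures were paired. Adjusted p-values are Benjamini-Hochberg over the 15843 genes tested, with a threshold of 0.05, and SE is the log2 fold change divided by the root of the test statistic. DESeq2 1.42.0 was an alternative, as were other scalings, filters, thresholds, subsets of libraries and a gene length offset.

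Genes were named by rule: 15 per direction with the largest change among called genes with a gene symbol and a mean of at least 20 reads, up to 5 called members of each gene list or otherwise its 3 most abundant, up to 4 called members of a symbol class, and genes tied to miR-83. Further genes and small families were chosen after their values were seen. The comparison, the 58 gene lists and the tests were chosen with earlier results of these data known, and list counts and medians are descriptions. Reads do not mark single molecules, so intervals and floors cover counting error only. The confidence level was 95%, and the floor was 3 reads over both mir-83 libraries.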

Additional observations from a re-analysis of the deposited data

How the results depend on the processing

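The 701 higher and 416 lower genes kept their sign under every alternative fit, but the counts moved. Since the genes were called from the same libraries, a kept sign is little support, above all where libraries were left out. On plain library sizes 210 were higher and 3819 lower, and with DESeq2 1504 and 1131. Without the replicate block, 204 were higher and 117 lower, all of them among the 701 and 416. With only the 4 day 4 libraries the counts were 2674 and 2203, and without both mir-83 day 12 libraries 1393 and 1015. At an adjusted p under 0.01 the counts were 0 and 0. Leaving out 1 library at a time gave between 0 and 1428 higher genes and between 0 and 1068 lower genes, with 0 in both directions without either mir-83 day 4 library, the highest without mir-83 day 12 replicate 1, and 256 lower genes without N2 day 12 replicate 1. RLE scaling, no filter, a gene length offset and a minimum log2 fold change of 1 moved neither count past 1.5 times. The cause of these moves was not tested.

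Of the 168 genes named, those that turned negative had not passed the threshold. On plain library sizes skr-1 stood at -0.69, cdc-42 at -0.01, cup-5 at -0.44, cey-2 at -0.19, din-1 at -0.15 and pat-3 at -0.85 on the log2 scale. Leaving out 1 library at a time, din-1 lay between -0.12 and 1.31 and pat-3 between -0.13 and 0.15. For pat-3 the value was also -0.08 with the length offset, and -0.01 with no filter, with only the day 4 libraries, and without both mir-83 day 12 libraries. Of the 58 lists, 23 kept the sign of their median in every fit and 19 changed it without some library. Searches for miR-83 seed matches and heat shock elements were not run, since no sequence was used here. Levels near the floor of 0.0853 CPM limit how far the lower genes' fold changes can be read.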
